A study of Homo sapiens with 2 samples.

Results

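In the human lung cancer line H1299, of the non-small cell type, chromatin carrying histone H3 lactylated at lysine 18 (H3K18la) was immunoprecipitated and sequenced to map the mark over the genome. The series holds 2 libraries, 1 precipitated with anti-H3K18la and 1 labelled input, both from H1299 cells with no treatment named, whereas its design text speaks of an IgG group. Only the peak list of the first library was analysed here, so each group has 1 library, there are no replicates, and no p-values are given. The stretch described is chromosome 14 from 60 to 82 Mb (GRCh38), where 326 of the 28695 listed broad peaks begin, against 617 on the rest of the chromosome. The members were chosen by position alone, but the limits were set with earlier results of the same list known. Among them was a raised local background of the peak caller in part of the stretch. Density, width, fold and background are therefore given as descriptions, and their intervals (95%, exact) cover counting error only. The sequencing depth of the library is unknown, and a gene without a listed peak is not described as lacking the mark.

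Lactylation of histone lysines draws on lactate, the end product of glycolysis, and H3K18la is best known from the promoters and enhancers of active genes. This part of the long arm holds genes with well-studied roles in tumour cells. Among them are HIF1A, the oxygen-sensing transcription factor, MAX, the obligate partner of MYC, FOS, a subunit of AP-1, ACTN1, an actin crosslinker of focal adhesions, ZFP36L1, which directs AU-rich mRNAs to decay, and RAD51B, a recombination repair gene. The stretch held 163 protein-coding genes, and the rest of chromosome 14 held 440. Of the genes set down as markers of the line, all 5 (KRT7, KRT8, KRT18, KRT19 and VIM) had a peak within 1000 bp of a gene end (exact interval 47.8 to 100%, against 59.1% of all coding genes of the genome), KRT8 and KRT18 with the same fold, and none of 5 immune, endothelial and liver genes did (PTPRC, CD3E, PECAM1, CDH5 and ALB; 0 of 5, exact interval 0 to 52.2%).

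The RefSeq promoter windows of 7 genes of the stretch (GRCh38.p14, 250 bases before the annotated start to 50 after it, in the direction of the gene) are printed first, since the results below turn on them. SIPA1L1 (chr14:71320226-71320525, plus strand), ACTN1 (chr14:68979253-68979552, minus), HIF1A (chr14:61695263-61695562, plus), ZFP36L1 (chr14:68793367-68793666, minus) and IRF2BPL (chr14:77028659-77028958, minus) lay under a peak. BATF (chr14:75522219-75522518, plus) and NGB (chr14:77271157-77271456, minus) did not. Capitals mark matches on either strand to 6 motifs that are common near gene starts or bound by factors of this stretch. They are TGACGTCA, the cyclic AMP response element, TGANTCA, the site of AP-1 factors such as FOS, CACGTG, the E-box bound by MAX with MYC, CCGGAAG, an ETS family site, GGGCGG, the GC box, and the CCAAT box.
SIPA1L1: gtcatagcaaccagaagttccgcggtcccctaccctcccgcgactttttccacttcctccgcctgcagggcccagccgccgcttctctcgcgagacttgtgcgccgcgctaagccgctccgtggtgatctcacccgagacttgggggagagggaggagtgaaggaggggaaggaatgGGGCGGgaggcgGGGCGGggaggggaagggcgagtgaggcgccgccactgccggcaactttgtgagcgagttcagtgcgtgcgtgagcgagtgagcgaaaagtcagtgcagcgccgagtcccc
ACTN1: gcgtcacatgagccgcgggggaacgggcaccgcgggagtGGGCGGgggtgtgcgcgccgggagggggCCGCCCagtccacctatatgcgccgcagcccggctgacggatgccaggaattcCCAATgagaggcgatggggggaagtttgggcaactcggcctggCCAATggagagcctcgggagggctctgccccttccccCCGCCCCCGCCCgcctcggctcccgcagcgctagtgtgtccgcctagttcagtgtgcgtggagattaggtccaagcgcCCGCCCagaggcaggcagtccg
HIF1A: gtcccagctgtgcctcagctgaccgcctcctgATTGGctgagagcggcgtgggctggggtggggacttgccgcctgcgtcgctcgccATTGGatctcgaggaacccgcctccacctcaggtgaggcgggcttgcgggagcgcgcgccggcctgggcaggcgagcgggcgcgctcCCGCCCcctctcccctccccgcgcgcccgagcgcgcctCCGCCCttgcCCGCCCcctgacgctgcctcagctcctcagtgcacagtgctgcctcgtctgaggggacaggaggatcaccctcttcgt
ZFP36L1: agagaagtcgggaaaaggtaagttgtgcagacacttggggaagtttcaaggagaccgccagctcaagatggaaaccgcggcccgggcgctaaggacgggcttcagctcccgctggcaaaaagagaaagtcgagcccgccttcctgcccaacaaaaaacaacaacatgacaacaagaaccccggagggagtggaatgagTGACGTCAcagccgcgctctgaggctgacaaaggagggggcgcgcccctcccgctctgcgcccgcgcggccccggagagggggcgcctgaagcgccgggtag
IRF2BPL: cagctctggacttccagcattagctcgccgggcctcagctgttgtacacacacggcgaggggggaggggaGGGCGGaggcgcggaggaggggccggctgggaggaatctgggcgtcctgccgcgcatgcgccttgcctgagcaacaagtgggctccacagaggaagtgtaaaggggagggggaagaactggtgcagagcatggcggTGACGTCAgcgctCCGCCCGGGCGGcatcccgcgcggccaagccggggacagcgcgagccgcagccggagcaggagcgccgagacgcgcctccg
BATF: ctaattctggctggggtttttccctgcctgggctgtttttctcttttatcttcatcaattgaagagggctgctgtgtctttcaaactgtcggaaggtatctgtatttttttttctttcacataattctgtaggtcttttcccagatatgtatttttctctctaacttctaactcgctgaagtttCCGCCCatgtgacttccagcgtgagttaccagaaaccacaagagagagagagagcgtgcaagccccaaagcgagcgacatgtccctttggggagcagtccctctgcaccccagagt
NGB: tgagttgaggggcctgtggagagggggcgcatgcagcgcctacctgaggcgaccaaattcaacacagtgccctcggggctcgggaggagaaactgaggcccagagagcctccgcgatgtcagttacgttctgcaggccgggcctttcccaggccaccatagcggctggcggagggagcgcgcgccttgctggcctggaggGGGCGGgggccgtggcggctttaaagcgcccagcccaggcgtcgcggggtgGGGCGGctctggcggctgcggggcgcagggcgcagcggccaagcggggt

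Peaks were denser in the stretch than on the rest of chromosome 14. It held 14.8 peaks per Mb against 8.96 on the rest, a ratio of 1.65 (1.44 to 1.89). The rest was the 68.9 Mb outside the stretch between the first and last annotated genes of the chromosome. Peaks covered 2.68% of the stretch and 1.31% of the rest. Protein-coding genes numbered 7.41 against 6.39 per Mb (ratio 1.16, 0.963 to 1.39, an interval that includes equal density), so that there were 2.0 peaks per coding gene in the stretch and 1.40 elsewhere. Width ranged from 288 to 15667 bp with a median of 1312 bp against 1247 bp. The interval of the median, 1215 to 1448 bp, included the value of the rest. Among peaks with -log10 q of at least 5 it did not, with 1741 bp (1543 to 1920) against 1499 bp. The median fold enrichment of all peaks of the stretch over the caller's local background was 3.96 (3.73 to 4.26). It was lower than the 4.35 of the rest and the 4.36 of the whole list. The peaks nearest to the limits were 4.60-fold and 929 bp just below 60 Mb, 5.93-fold and 4489 bp just above it, and 7.75-fold and 3152 bp as the last below 82 Mb. The next peak after that began only at 87992353 (5.65-fold).

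The ratio was higher for peaks of low fold and for peaks inside genes. With -log10 q of at least 5 the ratio was 1.66 (1.39 to 1.97), against 1.65 for all peaks. Peaks below the median fold of the whole list (4.36) were 1.95 times as dense as on the rest of the chromosome (1.62 to 2.34), and those at or above it 1.36 times (1.10 to 1.67). Accordingly 133 of 326 peaks (40.8%, 35.4 to 46.3) reached that fold, against 49.8% on the rest of the chromosome. By place, 101 peaks (31.0%, 26.0 to 36.3) lay within 1000 bp of a protein-coding gene end, where the whole list had 37.4% and the rest of chromosome 14 had 41.7%. The ratio of their density to that of the rest was 1.23 (0.967 to 1.55), and its interval includes equal density. Another 138 peaks (42.3%) lay elsewhere inside a gene at 2.31 times the density of the rest (1.84 to 2.89), and 87 (26.7%) lay between genes at 1.57 times (1.20 to 2.05). The rest was itself uneven, since 42.0% of peaks above 82 Mb lay inside genes (4.62 per Mb) and 21.0% of those below 60 Mb (1.64 per Mb), against 6.27 per Mb in the stretch. Without 67 to 70 Mb, a segment described below, the stretch had 4.37 per Mb inside genes. These densities are per Mb of all sequence, and the share of sequence inside genes was not taken into account. Peaks at gene ends had a median of 4.95-fold, those inside genes 3.43-fold and those between genes 3.93-fold, and the corresponding values of the rest were 5.56, 3.76 and 3.93. Without strand, exons or transcripts in the gene table, exonic and intronic positions were not assigned.

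**Figure D1:**
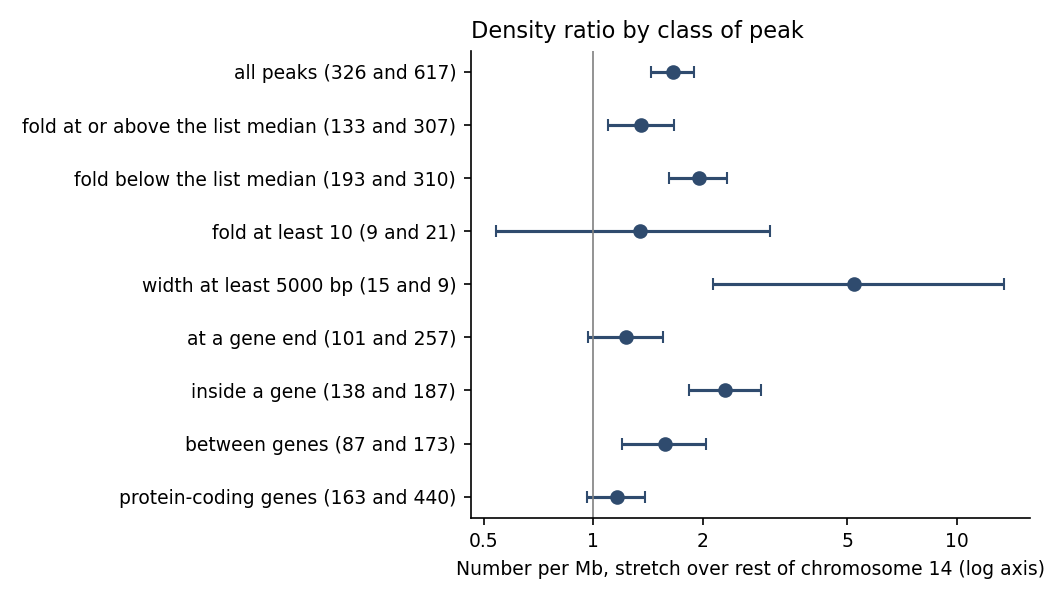
Number per Mb in the stretch divided by that on the rest of chromosome 14 (log axis) for classes of peak and for protein-coding genes, with exact 95% counting intervals and both counts in parentheses. Peaks inside genes (2.31) and peaks at least 5000 bp wide (5.22) lie to the right of peaks at gene ends (1.23) and of coding genes (1.16).

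Wide peaks were the class with the largest ratio. A width of 5000 bp or more was reached by 15 peaks (4.60%, 2.60 to 7.48) against 2.42% in the whole list and 9 of 617 (1.46%) on the rest of the chromosome, a density ratio of 5.22 (2.14 to 13.5). Of these 15 peaks, 6 overlapped RAD51B, and the others included those at ZFP36L1, IRF2BPL and DCAF4. Without 67 to 70 Mb, 8 of 236 peaks of the stretch were this wide (3.39%, 1.47 to 6.57), and that interval includes the 2.42% of the whole list. The 3 peaks over 10000 bp (0.920%, 0.190 to 2.67, against 0.265% in the whole list and 0 of 617 on the rest, interval 0 to 0.596%) lay inside RAD51B (15667 bp), over the whole of ZFP36L1 (14019 bp) and at the long noncoding gene LINC01629 (11079 bp). A fold of 10 or more, in contrast, was reached by 9 peaks (2.76%, 1.27 to 5.18), near the 2.93% of the whole list. Among those 9, 5 lay within 3 Mb of the lower limit, between 60248293 and 61696375.

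The stretch was not uniform. From 60 to 67 Mb it held 95 peaks (13.6 per Mb), from 67 to 70 Mb 90 peaks (30.0 per Mb) and from 70 to 82 Mb 141 peaks (11.8 per Mb), where the chromosome held 7.80 per Mb below 60 Mb and 11.0 per Mb above 82 Mb. The density of the last 12 Mb was therefore near that of the part beyond it. The fullest bin of 1 Mb, from 68 to 69 Mb, had 44 peaks, a number exceeded in 22 of the 2439 bins with a peak in the genome (median 9). The bins from 78 to 80 Mb had none. Without the 3 Mb from 67 to 70 Mb, which were set apart after the values were seen, the density ratio to the rest was 1.39 (1.19 to 1.61) and the coverage ratio 1.57 in place of 2.05.

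The caller's local background was highest in the segment of highest density, but it did not follow density throughout. From 60 to 67 Mb it was lower than in both parts above 70 Mb, where peaks were less dense. It was solved for each peak from its fold and -log10 p under the caller's Poisson model, and is in the caller's scaled read units. Its median was 4.15 below 60 Mb, 5.30 from 60 to 67 Mb, 10.7 (quartiles 9.82 and 12.6) from 67 to 70 Mb, 7.18 from 70 to 82 Mb and 6.84 above 82 Mb. At the lower side of the middle segment, the last peak before it, at the start of GPHN (66507373 to 66509327), had 5.35. The next peak, at 67166813, had 10.2. No peak is listed in the 657485 bp between them, so a step and a gradual rise cannot be told apart there. At the upper side no single step was seen, as the last 3 peaks of the segment had 7.09, 7.21 and, at SRSF5, 12.6, and the next peak, at SLC8A3, had 8.30. The lowest fold that was listed was 2.89 below 60 Mb, 2.67 from 60 to 67 Mb, 2.23 from 67 to 70 Mb, 2.47 from 70 to 82 Mb and 2.38 above 82 Mb. The segment of highest background had the lowest value, but the order of the other segments was not the reverse of their backgrounds throughout. Background was solved from the same folds, and under the Poisson model a lower fold reaches a given p where background is higher. Lowest fold and background are therefore not independent observations. The part of the background in the density of peaks was not tested. A like segment, chromosome 19 from 29 to 46 Mb, had a median background of 11.8, a lowest fold of 2.13 and 25.1 peaks per Mb. There 52.1% (47.3 to 56.9) of peaks lay at gene ends, compared with 23.3% (15.1 to 33.4) from 67 to 70 Mb of chromosome 14. The chromosomes themselves differed, with 59.6% (56.5 to 62.5) on the rest of chromosome 19 and 41.7% (37.7 to 45.7) on chromosome 14 outside the stretch. Both segments thus had a lower share than the rest of their own chromosome.

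**Figure D2:**
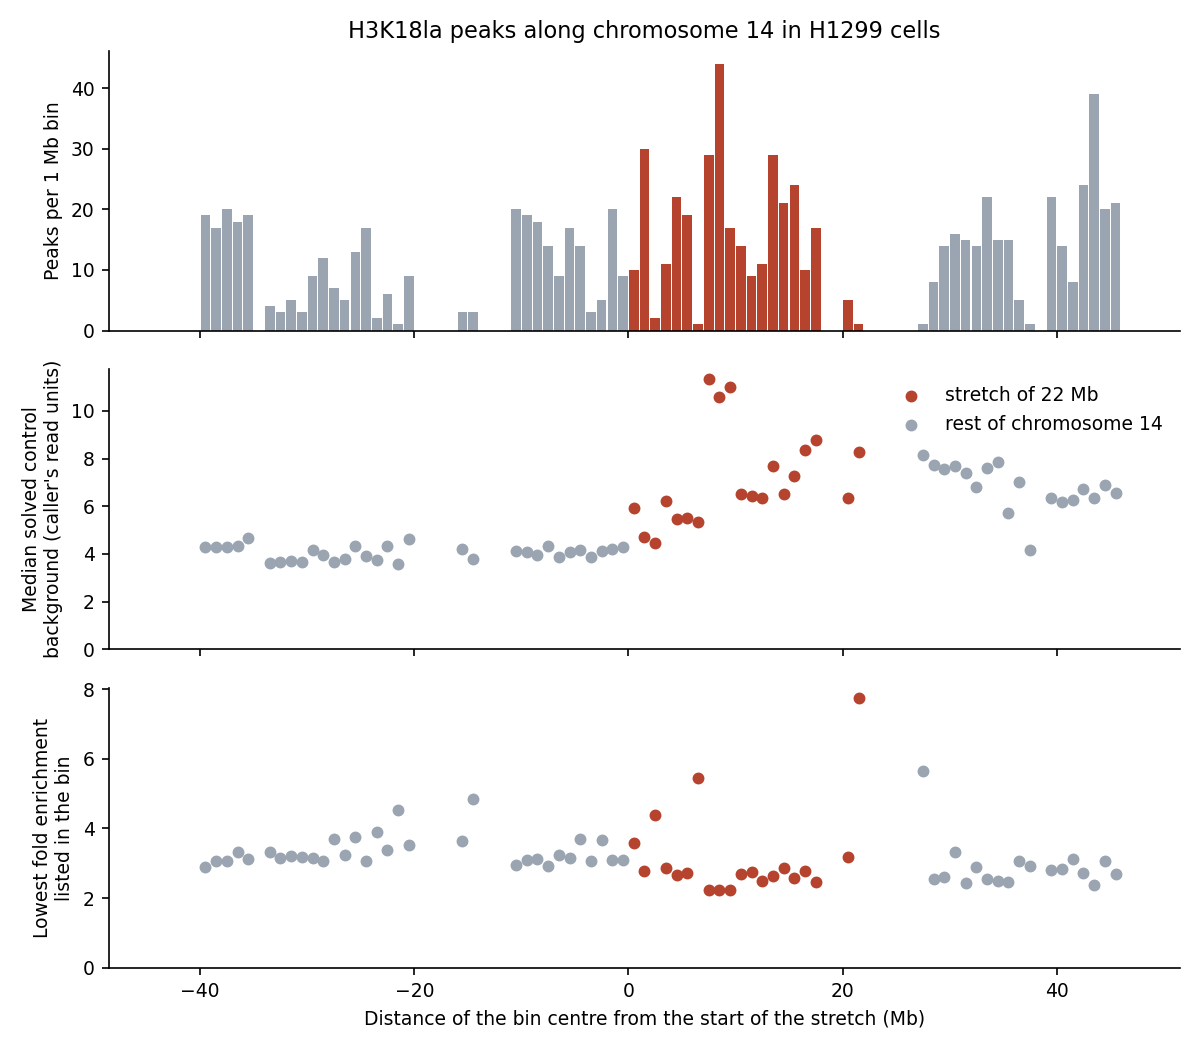
Peaks per bin of 1 Mb (top), median solved local background of the caller (middle, control background on the axis) and lowest listed fold enrichment (bottom) along chromosome 14, against the distance of the bin from the start of the stretch. Red bars and points are the stretch and grey ones the rest. The bins 7 to 10 Mb into the stretch combine up to 44 peaks with the highest backgrounds and the lowest folds. Background was solved from fold and -log10 p, so the middle and bottom panels are not independent.

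In that middle segment most peaks were of low fold and lay inside genes. Of its 90 peaks, 55 (61.1%, 50.3 to 71.2) lay inside a gene away from its ends. The median fold of the list was reached by 28 (31.1%, 21.8 to 41.7), and the median fold was 3.16. Low here refers to the ratio to a raised background. The median -log10 q was 6.23, against 5.96 from 60 to 67 Mb and 8.12 from 70 to 82 Mb. RAD51B (67819779 to 68683096), which acts in homologous recombination, alone overlapped 34 peaks of 2.24-fold to 9.76-fold, with a summed width of 93647 bp or 10.8% of the length of the gene, and 22 of them were below 4.36-fold. Its highest peak, 15667 bp wide (68134366 to 68150032), lay far from both ends of the gene. The outer 5′ end of the gene had 4.38-fold in a peak of 1500 bp, but no peak covered its RefSeq promoter windows. At the 3′ end lay a peak of 9660 bp and 7.16-fold. Strong peaks also occurred in the segment. ACTN1 had 13.1-fold over 3913 bp at its 5′ end with a -log10 q of 133.4, the highest of the stretch. ZFP36L1 had a single peak over both ends (8.25-fold). DCAF5, a substrate receptor of CUL4 ubiquitin ligases, had 9.77-fold, the splicing factor gene SRSF5 8.62-fold, the retinol dehydrogenase gene RDH11 8.39-fold, PALS1, a cell polarity scaffold gene, 7.69-fold, and VTI1B, a SNARE gene, 6.81-fold.

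**Figure D3:**
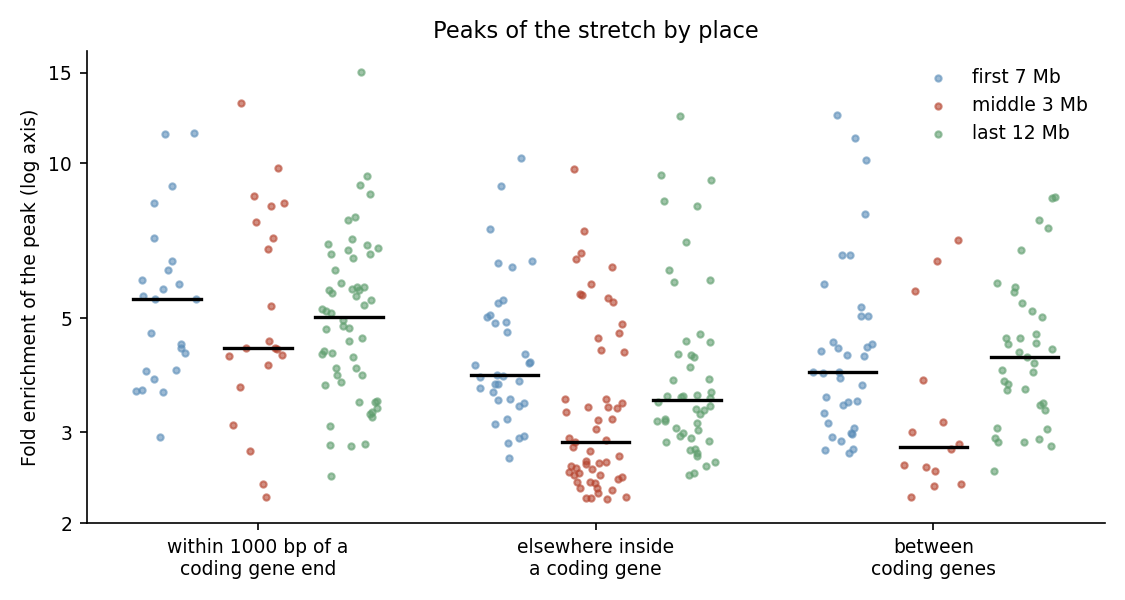
Fold enrichment (log axis) of each of the 326 peaks by place, for the first 7, middle 3 and last 12 Mb of the stretch, with black bars at the medians. Peaks at gene ends have medians of 5.44, 4.38 and 5.04, and peaks inside genes 3.89, 2.88 and 3.47, the middle segment being lowest in both.

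Of the 163 protein-coding genes, 115 (70.6%, 62.9 to 77.4) had a peak within 1000 bp of an end, against 62.3% on the rest of chromosome 14 (57.6 to 66.8) and 59.1% genome-wide. The order turned when only peaks of at least 4.36-fold counted, with 44.8% in the stretch and 49.1% on the rest. The median of the highest fold per gene was 5.21 against 5.74. A further 15 genes had peaks only inside, and 33 had none. The strand was known for 101 of the 115 genes. Among peaks at the outer ends, the one of highest fold lay at the 5′ end in 96 and at the 3′ end in 3 (RAD51B, DPF3 and MIDEAS). It lay over both ends in 2 (ZFP36L1 and IRF2BPL). MIDEAS had higher peaks over its inner RefSeq promoter windows. Among 144 genes with a RefSeq promoter window, a peak covered a window of 100 (69.4%, 61.2 to 76.8), where 57.1% did genome-wide. For 39 of the 115 genes the same peak also lay at another gene. Head-to-head pairs, whose starts lie within 1000 bp of each other on opposite strands, shared a peak in 13 of 15 cases, from ALKBH1 and SLIRP (2.47-fold) to POMT2 and GSTZ1 (7.87-fold). The median over those 13 was 4.38-fold, and it was 5.81-fold over 29 of 30 pairs on the rest of the chromosome. The pairs without a shared peak were ALDH6A1 with LIN52 and AREL1 with FCF1.

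SIPA1L1, a GTPase-activating protein for Rap that binds the actin cytoskeleton, had the highest fold of the stretch (15.0-fold, 71320374 to 71321819, -log10 q 84.0), at its 5′ end. It was followed by ACTN1, by ZBTB25 and ZBTB1, divergent BTB zinc finger genes that share 1 peak (11.4-fold, 64503044 to 64505775), and by HIF1A (11.4-fold, 61694751 to 61696375). Next were DCAF5, LTBP2, a matrix protein related to the latent TGF-beta binding proteins (9.43-fold), the transcriptional regulator gene IRF2BPL (9.07-fold), the homeobox gene SIX4 (9.03-fold) and the prostaglandin reductase gene PTGR2 (8.71-fold). The widest peaks at gene ends, after those of ZFP36L1, RAD51B and IRF2BPL, were at DCAF4 (5125 bp), PCNX4 (4489 bp), GARIN2 (4049 bp) and PLEK2 (4041 bp). The strongest peaks more than 1000 bp from the outer ends of genes included those inside PAPLN (12.3-fold), which encodes an extracellular matrix glycoprotein, and inside the phosphatase gene PPM1A (10.2-fold), both over a RefSeq promoter window of the gene. Others lay between genes at 61176895 to 61180866 (12.4-fold), 61559867 to 61567215 (11.2-fold, 7349 bp, within LINC01303) and 61101880 to 61105358 (10.1-fold). The last 3 lie on either side of PRKCH, the gene of protein kinase C eta. PRKCH itself overlapped 12 peaks of at most 6.40-fold, of which 1 (4.91-fold) covered its RefSeq promoter window, and HIF1A was the next marked coding gene end beyond LINC01303.

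Developmental and stress-responsive transcription factor genes were marked unevenly. Among neighbouring homeobox genes that act in the development of eye, muscle and sensory organs, SIX4 had 9.03-fold over 3793 bp and SIX6 had no peak. MAX had 5.44-fold over 952 bp at its 5′ end, against 11.4-fold at HIF1A. Of the bZIP genes, FOS had 4.52-fold (75276680 to 75279405) and the AP-1 repressor gene JDP2 6.66-fold, whereas BATF, a lymphoid AP-1 gene, had none. Both FOS and JDP2 were marked at the 5′ end. Of 12 chromatin and transcription genes, 10 had a peak (83.3%, 51.6 to 97.9, an interval that includes the 70.6% of all coding genes of the stretch), with a median of 6.17-fold. They included GTF2A1, a TFIIA subunit (7.75-fold), and the Mediator subunit gene MED6 (3.26-fold). The chromatin reader gene DPF3 had 4.0-fold, at its 3′ end and inside RGS6. MIDEAS, of a histone deacetylase complex, had 6.66-fold at its 3′ end in a peak also at PNMA1. Its peaks of 9.28-fold and 8.44-fold lay inside, each over a RefSeq promoter window of the gene. LIN52 and BATF had none.

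Most of the listed adhesion and signalling genes had a peak at an end, as did 70.6% of all coding genes of the stretch. Of 9 adhesion and cytoskeleton genes, 7 had a peak at an end (median 7.15-fold), including PLEKHG3 (7.15-fold), PLEK2 (4.22-fold), the spectrin gene SPTB (3.96-fold) and VASH1 (3.89-fold). SMOC1 had none, and the nuclear envelope gene SYNE2 had no peak at its outer ends but a peak of 6.47-fold over an inner RefSeq promoter window. Of 9 growth factor and receptor signalling genes, 5 had a peak, from MAP3K9, a JNK pathway kinase gene (6.78-fold), NUMB, a Notch inhibitor gene (5.76-fold), and ESR2 (5.70-fold) to TGFB3 (4.58-fold) and PGF (3.76-fold). The nuclear receptor gene ESRRB and the thyrotropin receptor gene TSHR had no peak at an end or inside.

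The housekeeping groups had shares of marked genes whose exact intervals all included the 70.6% of all coding genes of the stretch, and their counts are read as no more than that. Of 10 RNA and translation genes 9 had a peak (median 4.78-fold), among them YLPM1 (6.93-fold), RBM25 (5.53-fold), SNW1 (4.78-fold), the initiation factor genes EIF2S1 (4.38-fold, also at the proton pump gene ATP6V1D) and EIF2B2 (4.32-fold), and not FCF1. All 4 DNA repair genes had a peak, with MLH3 at 5.60-fold, EXD2 at 4.06-fold and ALKBH1 at 2.47-fold beside RAD51B. Of 14 genes of mitochondria and metabolism 11 had a peak (median 5.43-fold). Among them were GSTZ1 (7.87-fold, also at POMT2), the one-carbon enzyme gene MTHFD1 (6.47-fold), DLST, of the 2-oxoglutarate dehydrogenase complex (5.21-fold), and ARG2 (3.10-fold). In the cluster of acyl-CoA thioesterases, ACOT2 had 6.55-fold and ACOT1 5.31-fold, where RIOX1 has the same peak, while ACOT4 and ACOT6 had none at an end. These genes are close copies, and how reads matching several of them were placed was not examined. Of 9 secretory pathway and lysosome genes 8 had a peak (median 4.19-fold), led by the cholesterol transfer gene NPC2 (6.83-fold, also at ISCA2), and SEL1L, of endoplasmic reticulum degradation, had none.

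The listed genes of restricted expression had almost no peaks at their ends. That list was drawn with earlier results of these data known, and its share describes the listed members only. Of 13 such genes, 1 had a peak (7.69%, 0.195 to 36.0, against 70.6% of all coding genes of the stretch), the photoreceptor retinol dehydrogenase gene RDH12 (3.68-fold, 67700164 to 67702162), which lies next to RDH11 in the segment of highest background. The neuroglobin gene NGB, the bile acid transporter gene SLC10A1, the potassium channel gene KCNH5, GPHB5, DIO2, ADAM20, ADAM21 and LRRC74A had no peak anywhere in the gene. SYT16 had a peak of 4.11-fold inside, over 1 of its RefSeq promoter windows. The widest interval without a peak, 2586569 bp from 77800783 to 80387351, contained NRXN3, a neuronal adhesion gene, and DIO2. The next were 1085081 bp around CCDC196 (65422292 to 66507372) and 1014552 bp over most of RGS6 (71593374 to 72607925).

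**Figure D4:**
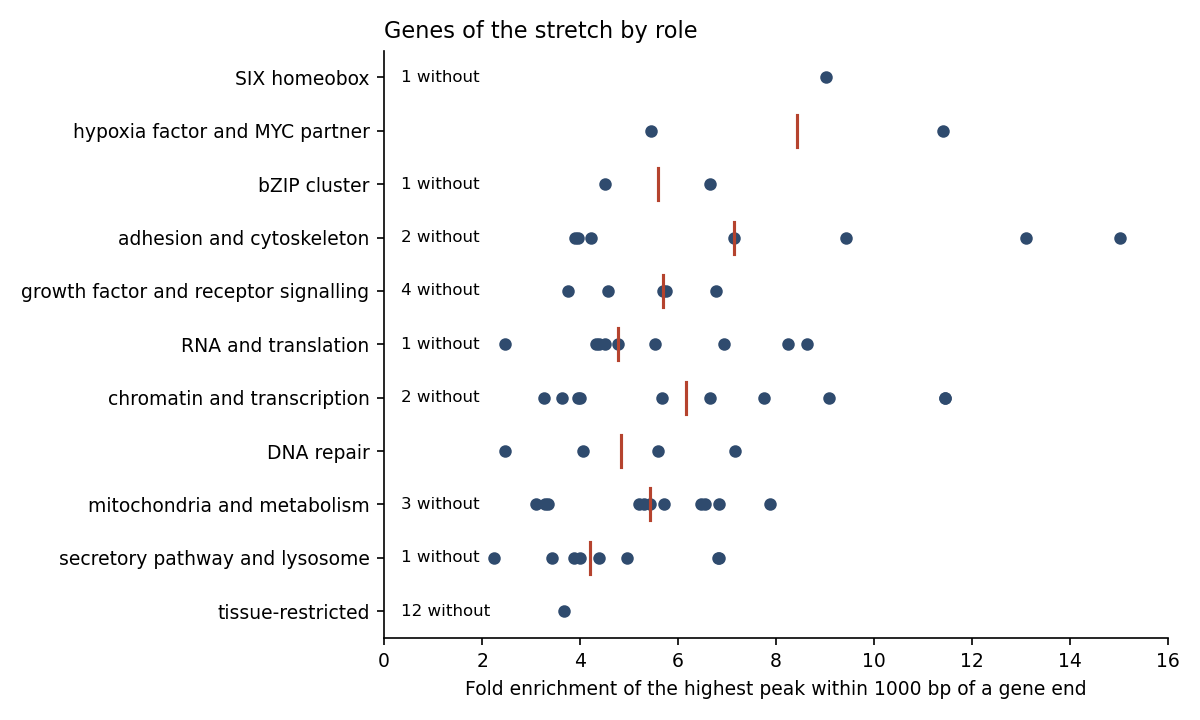
Highest fold enrichment within 1000 bp of a gene end for each member of 11 groups of genes in the stretch (points), with the median of the marked members (red bar) and the number without a peak. The tissue-restricted group has 1 point at 3.68 and 12 genes without a peak.

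Peaks also lay at noncoding genes and in close groups, most of which overlapped a coding gene. Of 126 long noncoding genes in the stretch 42 (33.3%, 25.2 to 42.3) had a peak at an end, against 21% on the rest of the chromosome (17.2 to 25.1). Many of these share the peak of a coding gene, as ACTN1-DT, HIF1A-AS1 and SIPA1L1-AS1 do. More than 5000 bp from the outer ends of coding genes, the highest were FUT8-AS1, inside the fucosyltransferase gene FUT8 (9.05-fold), LINC02288 (6.80-fold, 7400 bp), LINC01629 (5.74-fold), LOC124903335 (5.48-fold) and PRKCH-AS1 (4.91-fold). The peak at FUT8-AS1 also covered promoter windows of FUT8, and that at PRKCH-AS1 the window of PRKCH. With gaps of at most 12.5 kb joined, 8 groups of 5 or more peaks were found in the stretch and 13 on the rest of the chromosome. They held 49 of the 326 peaks of the stretch and 81 of the 617 of the rest, which are similar shares. With gaps of at most 5000 bp there were 2 and 3 groups. The group with the most peaks, 9 in 72009 bp (61524074 to 61596082), ran from the end of PRKCH over LINC01303. Another, of 8 peaks in 49379 bp with no coding gene (65210079 to 65259457), lay at LINC02324 between MAX and FUT8. The group of highest coverage within the stretch, 61.4% of 17823 bp, lay within LTBP2.

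Promoters under a peak were richer in CpG than those without, as over the genome. In the stretch, 126 windows under a peak had a median of 26 CpG dinucleotides and 64.3% GC, and 79 windows without a peak had 7 and 53.7%. Over all 22175 coding windows of the table the corresponding medians were 28 and 7 CpG. The windows printed above span this range, with 29 CpG at SIPA1L1 and ACTN1, 31 at HIF1A and 7 at BATF, but NGB (28) and KCNH5 (33) had no peak. GGGCGG was present in 67.5% of windows under a peak and 40.5% of the others (56.3% of all coding windows), and CCGGAAG in 22.2% and 6.33% (12.8%). For CCAAT the shares were 31.0% and 40.5% (34.7%), for CACGTG 7.94% and 6.33% (8.34%), and for ACGTG, which lies within CACGTG, 25.4% and 15.2% (23.0%). TGANTCA was found in 3.17% and 11.4% (6.14%). TGACGTCA was found in 5 windows under a peak (3.97%) and 1 without (1.27%, against 2.26% of all). The 5 included the windows of ZFP36L1 and IRF2BPL, whose peaks cover the entire gene, with the first base at position -52 and -44 from the start. Over all coding windows, those under a peak and the others had GGGCGG in 74.9% and 35.4%, CCGGAAG in 18.8% and 6.14%, and TGANTCA in 4.41% and 8.08%. For every motif the direction of the difference was the same in the stretch and over all coding windows. Motifs were searched on both strands, and a match is a description of the letters and not a binding site.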

How the data were processed

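H3K18la ChIP-seq was analysed from the deposited broad peak list of 1 library. Per the submitters' processing notes, the tools were bcl2fastq 2.17, cutadapt 1.18, Trimmomatic 0.38, Bowtie2 2.3.4.1, Picard, MACS2 (2.1.2 and 2.1.0 both listed) and ChIPseeker, with hg38. The caller's settings, threshold and control library are not given in the sources used here, and no listed q exceeded 0.0472. The deposited fold enrichment is a ratio to the caller's local background, averaged over the peak. The deposited significance is -log10 p and -log10 q, and the deposited score is -log10 q times 10 without its decimals (99.98% of peaks).

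Peaks were compared with RefSeq genes (GRCh38.p14), leaving out 718 of 59679 entries placed on other sequences, by overlap of 1 bp or more with windows of 1000 bp around gene ends. RefSeq promoter windows gave strand and start where present. Background was solved with a pseudocount of 1 on both sides, and is approximate because fold and p are averages over the peak. Whether a control library entered it is not stated. Shares carry exact (Clopper-Pearson) intervals, density ratios exact conditional binomial intervals and medians order-statistic intervals, all at 95%. Overlap and background code was tested on simulated data. Python 3.11.15, pandas 2.3.3 and scipy 1.17.1 were used.

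Genes were named by rule: the 10 of highest fold and the 10 of widest peak at an end, the 5 with most peaks, the 5 strongest distant long noncoding genes, the 3 widest gaps and members of 11 role lists. The stretch and lists were chosen with earlier results of these data known. The segments, head-to-head pairs, PPM1A, PAPLN and other genes that fall outside the rule were picked with their values in view. Alternatives covered peak filters, membership, limits and windows. Some members of the lists are not reported here and were left out of the counts of the lists.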

Additional observations from a re-analysis of the deposited data

How the results depend on the processing

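With 1 library, no replicate could be left out, and no paired analysis was possible because neither group has a second sample. The depth is unknown, so the precision of each fold cannot be given. Assigning peaks by midpoint or trimming the stretch to 61 to 81 Mb kept all 6 main values within their intervals. With -log10 q of at least 5 the density ratio was 1.66, near the main value. The median width was then 1741 bp (1543 to 1920) against 1499 bp on the rest, and the median fold 5.02 against 5.43. The share of peaks at gene ends was 42.9% against 56.8%. With peaks at or above the median fold of the list, the density ratio was 1.36. The median width was 2004 bp (1755 to 2336) against 1583 bp on the rest, and the median fold 5.84 against 5.89. The share of genes with a peak was 44.8% against 49.1%, and the share of peaks at gene ends 46.6% against 61.6%. Under both filters the median width was larger in the stretch than on the rest. Both filters remove weak peaks by construction. Counting the rest of the chromosome from position 1 raised the density ratio to 2.04 and the coverage ratio to 2.52, since no peak is listed below 20 Mb. Without 67 to 70 Mb, an alternative added after the data were seen, they were 1.39 and 1.57. With windows of 3000 bp 37.1% of peaks lay at gene ends, and with direct overlap 25.8% of peaks and 57.7% of genes counted. Joining peaks over gaps of at most 5000 bp, also added later, gave 2 groups of 5 or more peaks in place of 8, and 3 in place of 13 on the rest of the chromosome.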

Other observations

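Among small RNA genes of the stretch, 2 of 11 microRNA genes lay under a peak, of which MIR4505, inside MIDEAS, was at 8.44-fold. The only tRNA gene, TRC-GCA8-1, a cysteine tRNA (72962971 to 72963042), lay in a peak of 4.20-fold beyond the end of DCAF4, and none of 5 small nucleolar RNA genes lay in one (SNORA79 and SNORD169 among them). Of the 138 peaks inside genes, 13 (9.42%) covered a RefSeq promoter window, and these had a median of 5.57-fold against 3.36-fold for the remaining ones. On the rest of chromosome 14 the values were 18 of 187 (9.63%), 5.95-fold and 3.66-fold.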
